A study of Mus musculus with 20 samples.

Results

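The effect of losing the erythropoietin receptor (Epor) in type 1 conventional dendritic cells (cDC1s) was compared between spleen and peripheral lymph nodes, gene by gene. The quantity described is the change from control to knockout in lymph node minus the change from control to knockout in spleen, on the log2 scale, called here the tissue difference. A positive tissue difference means that the knockout libraries stood higher relative to their controls in lymph node than in spleen. All genes of the count table were taken, and 17362 of its 55487 genes had enough counts to be tested. Of these, 55 passed the threshold (edgeR's quasi-likelihood test, adjusted p under 0.05), 22 with a positive and 33 with a negative tissue difference.

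The 12 libraries used, of 20 in the series, were RNA-seq libraries of sorted mouse cDC1s in 4 groups of 3. Control mice carried a loxP-flanked Epor gene (Eporflox/flox). Knockout mice are labelled Epor-Xcr1-Cre cKO: Cre recombinase, made from the Xcr1 gene that marks cDC1s, deletes Epor in them. Cells of both genotypes were sorted as CCR7+, XCR1+ and SIPRa- (the signal regulatory protein SIRPa, in the labels' spelling), from spleen or from peripheral lymph node, and the lymph node cells are further described as migratory. The controls are named by the flox allele alone, so an effect of Cre itself and an effect of Epor loss cannot be told apart. The labels give no age for these mice and do not say whether the 3 libraries of a group came from separate mice. Where 2 sets of 3 values are given for a tissue, the controls come first. The p-values below therefore measure only the spread between these libraries, which may be technical.

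Erythropoietin receptor is a cytokine receptor on the surface of red cell precursors and of some other cells. On binding erythropoietin it activates the kinase JAK2 and the transcription factor STAT5, which switches on genes of survival and feedback. cDC1s take up dying cells and cross-present their antigens to CD8 T cells. CCR7 is the chemokine receptor that guides maturing dendritic cells to lymph nodes, so a CCR7+ gate holds mature cells in both organs, while in lymph nodes many of them have travelled in from tissues.

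Depth ran from 26618029 to 49700660 counts per library, and 3 counts, used below as the floor of detection, correspond to 0.0568 to 0.12 counts per 1e6 counts (CPM) in 1 library. Tissue dominated the variation: the first principal component held 45.9% of it and put the 6 spleen libraries at -108.4 to -75.1 and the 6 lymph node libraries at 75.7 to 97.3. Along it the knockout libraries lay nearer to the middle in lymph node (75.7 to 77.9, controls 92.0 to 97.3), while in spleen they lay at -80.8 to -75.1 and the controls at -108.4, -94.9 and -78.5. Spleen control replicate 1 stood apart on the second component and spleen control replicate 2 on the third. Counts of libraries of the same group differed by more than sampling noise in all 12 pairs (chi-square per degree of freedom 13.5 to 150.4). None was therefore treated as the same library sequenced again. A spread above sampling noise cannot tell separate mice from libraries made separately from 1 pool of cells. By this measure spleen control replicate 3 was closer to the 3 knockout spleen libraries (27.4 to 50.3) than to the other 2 spleen controls (125.3 and 150.4).

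The targeted gene was nearly absent. Epor (ENSMUSG00000006235; chromosome 9, 21958897 to 21963506, minus strand) had 0, 2 and 0 counts in knockout spleen and 1, 0 and 6 in control spleen, with 0, 0 and 0 in knockout lymph node and 24, 28 and 4 in control lymph node. It was too low to be tested. In lymph node the 3 controls lay above the 3 knockouts, at least 20.4-fold over the group sums with the floor of 3 counts, and in spleen the groups overlapped near 0. Reads are summed over the whole gene, so these counts do not tell the deleted exons from the rest.

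Xcr1, Ccr7 and Sirpa, the genes of the sort gate, showed no tissue difference past the threshold. Xcr1, the chemokine receptor that defines cDC1s, stood at 89.9, 108 and 86.5 CPM in control spleen, 76.8, 80 and 78.9 in knockout spleen, 30, 21.6 and 32.3 in control lymph node and 24.9, 24 and 19.3 in knockout lymph node. Its tissue difference was -0.027 ± 0.21 (log2 ± SE; edgeR adjusted p = 0.983). For Ccr7 it was -0.027 ± 0.11 (edgeR adjusted p = 0.961), with levels of 3800.4 to 5703 CPM in the 12 libraries, and the sign of both values turned under other settings. Sirpa, excluded by the gate and a marker of type 2 dendritic cells, had 4.64 to 17.4 CPM and a tissue difference of -0.41 ± 0.36 (edgeR adjusted p = 0.701).

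The 55 genes were 0.317% of those tested, 0.127% with a positive and 0.19% with a negative difference. At an unadjusted p under 0.05 there were 2173 genes. For comparison, the genotype effect itself passed in 106 genes in spleen (0.611%; 85 higher and 21 lower in knockout, 0.49% and 0.121%) and in 79 in lymph node (0.455%; 50 higher and 29 lower, 0.288% and 0.167%). Among the 55, the genotype effect passed in spleen and not in lymph node for 19, in lymph node and not in spleen for 24, in both tissues with opposite signs for 6, in both with the same sign for 2 and in neither tissue for 4. The effects in the 2 tissues had opposite signs in 43 of the 55. Selecting genes on the difference of the 2 effects favours opposite signs, so this count describes the pattern and does not test it. The count depended on single libraries: it ran from 29 without knockout spleen replicate 1 to 222 without control spleen replicate 3, and DESeq2 called 514 genes against 55. With upper-quartile scaling the split was 46 positive and 34 negative in place of 22 and 33, and in spleen 80 higher and 34 lower. Of the 55 genes, 27 were kept without knockout spleen replicate 1, 29 without knockout spleen replicate 2 or control lymph node replicate 1, and 33 without knockout lymph node replicate 1, while all 55 were kept without control spleen replicate 3. In all, 22 passed in all 12 fits with 1 library left out, and none changed sign in any fit.

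**Figure D1:**
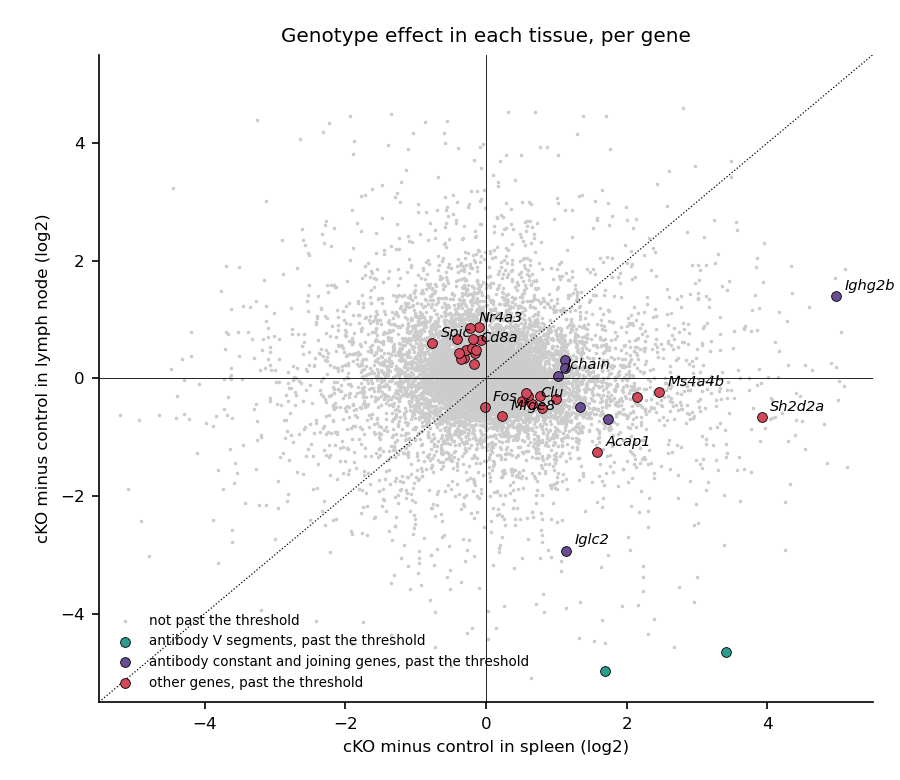
Change from control to cKO in spleen (x axis) against the same change in lymph node (y axis), both log2 from the fit, 1 point per gene, with 3 libraries in each group. The dotted line marks equal effects; coloured genes passed the threshold of the tissue difference, and 36 of the 55 are drawn, the other 19 having a group with 0 counts or an effect beyond 5.5. Most coloured genes lie in the upper left or lower right part, where the 2 effects have opposite signs. Selection on the difference of the 2 effects favours these parts.

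Antibody genes made up 25 of the 55: 18 variable (V) segments and 7 constant and joining genes. Antibodies are assembled in B cells by joining 1 V segment to shorter segments, so each B cell clone and the plasma cells that descend from it transcribe their own V segment beside a constant gene. Mature plasma cells secrete antibody in large amounts, with the joining chain Jchain linking IgA and IgM into polymers. The 7 constant and joining genes all had negative tissue differences. In spleen the 3 knockout libraries lay above the 3 controls for each of them, and the rise passed the test in 6.

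Jchain (ENSMUSG00000067149; chromosome 5, 88519809 to 88527891, minus strand) stood at 345, 382 and 380.1 CPM in control spleen and 764, 753 and 734 in knockout spleen. In lymph node it had 23, 24.2 and 23.1 CPM in controls and 23.3, 24.1 and 25.2 in knockouts. The spleen groups did not overlap and the lymph node groups did. The tissue difference was -0.98 ± 0.10 (edgeR adjusted p = 1.09e-04), and it passed under every alternative that was run. Igha (ENSMUSG00000095079; chromosome 12, 113254830 to 113260236, minus strand), the constant gene of IgA, the antibody of mucosal surfaces, had 1021, 1080.1 and 975 CPM in control spleen and 2215, 2286 and 2163 in knockout spleen, against 66.9, 52.2 and 73 and 68, 76.4 and 72.9 in control and knockout lymph node (-0.94 ± 0.14, edgeR adjusted p = 0.00622). Igkc (ENSMUSG00000076609; chromosome 6, 70726435 to 70726966, plus strand), which encodes the constant part of kappa light chains, went from 863, 836 and 777 to 1789.6, 1915 and 1705 CPM in spleen and from 63.9, 59.9 and 64.5 to 68.3, 80.7 and 83.4 in lymph node, where the groups did not overlap either but the change was 0.30 ± 0.082 (edgeR adjusted p = 0.211), against 1.13 ± 0.082 in spleen. Its tissue difference was -0.82 ± 0.12 (edgeR adjusted p = 0.00362).

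The IgG constant genes rose from lower levels. Ighg2b had 1.78, 1.61 and 1.21 CPM in control spleen and 51.4, 49.8 and 44 in knockout spleen. In lymph node it had 0.134, 0.268 and 0.0967 CPM in controls and 0.302, 0.777 and 0.284 in knockouts. The groups did not overlap there either, at low counts, and the change was 1.40 ± 0.45 (edgeR adjusted p = 0.349). Its tissue difference was -3.57 ± 0.59 (edgeR adjusted p = 0.0144; 0.115 without control lymph node replicate 2). Ighg3 went from 12.8, 14.4 and 15.4 to 37.3, 37.1 and 33.6 CPM in spleen, and its lymph node groups, at 2.96 to 6.58 CPM, overlapped (-1.83 ± 0.29, edgeR adjusted p = 0.011; 0.0511 without knockout spleen replicate 1). Among the lambda light chain genes, Iglc1 behaved likewise in spleen, with 35.7, 32.3 and 38.3 CPM in controls and 122, 119 and 113 in knockouts, while the lymph node libraries had 0.151 to 0.649 CPM (-2.42 ± 0.38, edgeR adjusted p = 0.011; 0.0638 without control lymph node replicate 1). Iglc2 differed from the other 6 genes in that its change in lymph node passed the test. It fell there from 8.59, 10.6 and 10.6 to 1.86, 0.434 and 1.59 CPM (-2.93 ± 0.34, edgeR adjusted p = 2.67e-04), while spleen had 23.2, 15.8 and 18.4 CPM in controls and 38.8, 41.6 and 46.2 in knockouts (1.14 ± 0.31, edgeR adjusted p = 0.123).

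These genes are part of a list of plasma cell markers. It had 24 genes, all tested, with 2 at 0 in the whole control lymph node group: 7 passed with a negative and 0 with a positive tissue difference, all 7 being the genes just described, and the median was -0.96, against 0.0054 over all genes tested. With members that had an empty group set at their floor, the median was -0.98. The list's summed level was 2950 to 3110 CPM in control spleen, 5730 to 6230 in knockout spleen, 837 to 887 in control lymph node and 798 to 882 in knockout lymph node. Xbp1, the transcription factor that plasma cells need for secretion and that other cells use in the unfolded protein response, rose in spleen (0.68 ± 0.12, edgeR adjusted p = 0.0226), and its tissue difference was -0.78 ± 0.17 (edgeR adjusted p = 0.0751). In such sorted bulk samples a change in the number of cells of a type and a change in RNA per cell cannot be told apart. The part of B-lineage cells in the antibody RNA was not tested.

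For most of the V segments the change that passed the test was in lymph node, where single segments were present in all 3 libraries of a genotype and at or near 0 in all 3 of the other. Of 218 V segment genes, 149 were tested and 18 passed, 10 with a negative and 8 with a positive tissue difference. In lymph node, 10 segments had at least 10 counts in each control library, and 5 of them had 0 in each knockout. The reverse held for 5 of the 12 segments with at least 10 counts in each knockout library. In spleen these numbers were 1 of 83 and 18 of 139.

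Igkv10-96 (ENSMUSG00000094420; chromosome 6, 68631963 to 68632442, minus strand), a kappa V segment, had 16, 19.4 and 19.4 CPM in control spleen and 49.9, 58.8 and 45 in knockout spleen, and 4.79, 4.21 and 4.42 CPM in control lymph node with 0 counts in all 3 knockout libraries. Its lymph node level was at least 213-fold lower in knockout, against a spleen change of 1.49 ± 0.17 (edgeR adjusted p = 0.00184), and the tissue difference had an edgeR adjusted p of 4.02e-08. It was the smallest of all genes. Iglv3 (chromosome 16), a lambda V segment, rose in spleen from 0.393, 0.361 and 0.54 to 4.61, 5.36 and 3.95 CPM and fell in lymph node from 5.41, 5.73 and 5.49 to 0.194, 0.251 and 0.208, so that both changes passed with opposite signs (3.41 ± 0.40 and -4.65 ± 0.42). Ighv1-55 and Igkv12-44 did the same, and Ighv3-6 as well. Igkv8-30 and Igkv4-57, with 5.37, 6.51 and 6.6 and 8.64, 7.23 and 7.33 CPM in control lymph node, were at 0 in all knockout lymph node libraries, at least 293-fold and 368-fold lower. The other negative segments were Ighv1-42, Igkv15-103 and Ighv2-5, at no more than 2.8, 12 and 2.08 CPM. Of these Ighv1-42 differed from the rest, with 0 counts in control spleen and 1.95, 2.8 and 1.56 CPM in knockout spleen.

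The positive V segments were present in knockout lymph node and nearly absent from control lymph node. Igkv12-46 had 0.0447, 0.0447 and 0.0242 CPM in control and 8.75, 8.41 and 10.1 in knockout lymph node, and 14.1, 6.18 and 9.31 against 28.4, 26.4 and 21.5 CPM in spleen (6.41 ± 0.53, edgeR adjusted p = 7.32e-06). Igkv6-23 followed it, at 0.0224, 0.112 and 0.0242 and 9.35, 8.62 and 9.66 CPM in control and knockout lymph node (5.04 ± 0.50, edgeR adjusted p = 6.71e-05). These are the 2 genes that passed in both tissues in the same direction, with the larger rise in lymph node. Ighv5-4 instead fell in spleen, from 8.95, 17.2 and 17.1 to 3.1, 4.23 and 3.69 CPM, and rose in lymph node from 0, 0.0895 and 0.0484 to 2.25, 2.13 and 2.37 (7.49 ± 0.69, edgeR adjusted p = 3.11e-05). Igkv5-39, Ighv1-78, Igkv2-109, Igkv13-85 and Ighv14-4 had no count or close to none in the control lymph node libraries. In knockout lymph node they stood at 3.48, 3.41 and 4 CPM for Igkv5-39, 1.64, 1.51 and 2.1 for Ighv1-78, 0.497, 0.914 and 0.663 for Igkv2-109, 1.64, 2.51 and 2.5 for Igkv13-85 and 1.1, 2.08 and 1.61 for Ighv14-4. Calls of the low segments were fragile: leaving out 1 library ended that of Ighv1-42 in 2 of 12 fits, Igkv15-103 in 3, Ighv1-78 in 7, Ighv2-5 in 8, Igkv2-109 in 10, Igkv13-85 in 9 and Ighv14-4 in 11, and none of these fits ended a call of the other 11 V segments, of which Igkv5-39 lost its call in 3 of the 24 alternatives.

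The segments present were shared by the libraries of a group more than between groups. Across the 218 V segments, the correlation of log2(count + 1) between libraries of the same group was 0.795 to 0.97 over 12 pairs, and between the 2 genotypes of a tissue 0.157 to 0.723 over 18 pairs. These are descriptions, since the segments of a library share its depth and its cells. Whether the libraries of a group also shared mice or cells is not stated and was not tested. Summed over all V segments, the level was 350.0 to 407 CPM in control spleen, 866 to 1080 in knockout spleen and 39.4 to 46.4 CPM in the 6 lymph node libraries. In lymph node the summed level thus overlapped between genotypes, although the segments present differed. Near-identical V segments can exchange reads, which makes single segments uncertain.

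**Figure D2:**
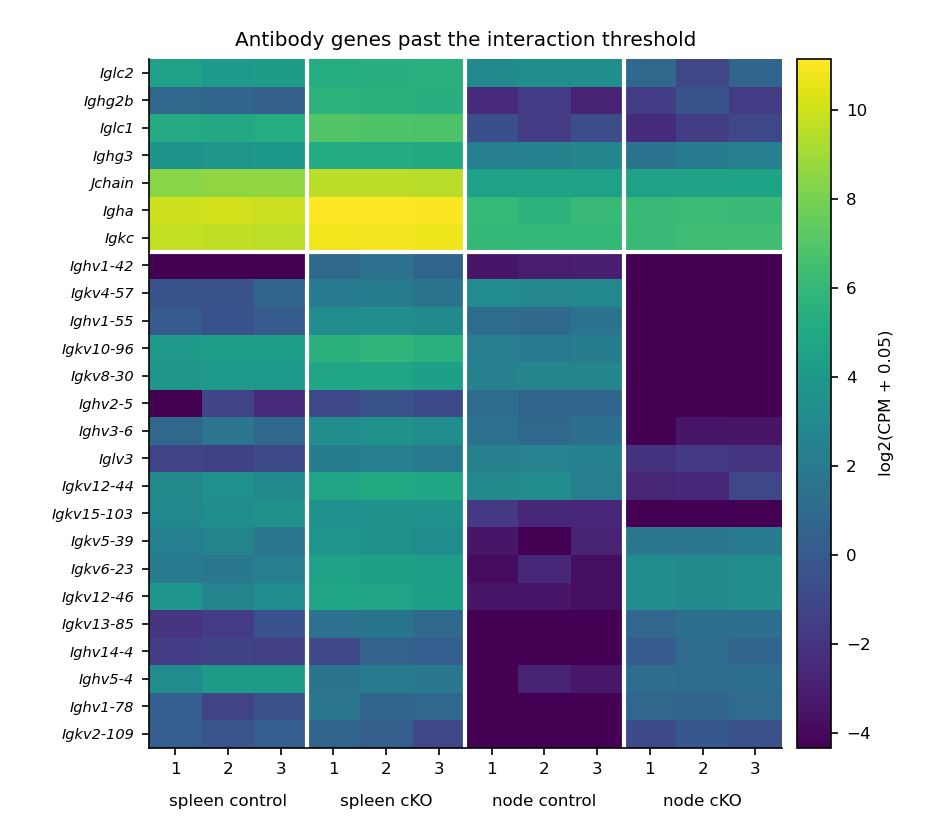
Level of the 25 antibody genes past the threshold (rows; constant and joining genes above the white line, V segments below) in each of the 12 libraries (columns, 3 replicates per group), as log2(CPM + 0.05). The 7 genes above the line are brightest in knockout spleen; below it, the first 10 V segments are darkest in the 3 knockout lymph node libraries, apart from Ighv1-42, which is as dark in control spleen, and Ighv2-5, which is as dark in control spleen replicate 1, and the last 8 in the 3 control lymph node libraries.

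A second group of genes with negative tissue differences was present in control lymph node and nearly nowhere else. Amy1 (ENSMUSG00000074264; chromosome 3, 113555710 to 113606699, minus strand), the amylase of salivary glands, had 87.4, 167 and 74.2 CPM in control lymph node, 0.389, 0.137 and 0.152 in knockout lymph node, 0, 0 and 0.101 in control spleen and 1.17, 0 and 0.636 in knockout spleen. Its change in lymph node was -8.91 ± 0.73 (edgeR adjusted p = 3.59e-05), and the tissue difference had an edgeR adjusted p of 5.13e-04. Other genes overlap 32.7% of the exon bases of Amy1, with Rnpc3 as the largest partner. Car6, a carbonic anhydrase secreted into saliva, had 11.9, 17.2 and 10.8 CPM in control lymph node, and among the other 9 libraries only knockout spleen replicate 2 and knockout lymph node replicate 3 had a count (edgeR adjusted p = 0.0175; 1 without knockout spleen replicate 2).

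Other genes with salivary or glandular products, chosen after their values were seen, had the same distribution and did not pass. Bpifa2, a secreted parotid protein, had 642, 989.9 and 561 CPM in control lymph node and up to 1.08 in the other libraries (-10.84 ± 0.92 in lymph node, edgeR adjusted p = 6.99e-04; tissue difference, edgeR adjusted p = 0.273). Smr3a, a submaxillary gland protein, had 32.7, 39.2 and 35 CPM there and a single count elsewhere. Dcpp1, Dcpp2 and Dcpp3, the demilune cell and parotid proteins, had 20.9, 21.5 and 19.7, 0.962, 0.895 and 0.822 and 4.54, 3.8 and 3.84 CPM there and at most 2 counts in any other library. For Smr3a, Dcpp2 and Dcpp3 the spleen groups were at or near 0, and the edgeR adjusted p of the tissue difference was 1. For Dcpp1 it was 0.0603. The labels do not name the nodes taken, and the part of gland RNA in these libraries was not tested.

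Outside the antibody genes 30 genes passed, 14 with positive and 16 with negative tissue differences. In the controls, all 14 positive genes were lower in lymph node than in spleen, and 13 of the 16 negative genes were higher in lymph node. The gap between the tissues was narrower in knockout than in control for 23 of these 30. Over all genes tested the gap was narrower in knockout for 63.4%, and for 67.5% of the 9638 genes whose average level reached 2 log2 CPM. The gaps and the tissue difference are made from the same 4 group means, so these counts describe the pattern and do not test it.

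Cd8a and Cst3, both in the list of cDC1 identity genes, were among the positive genes. Cd8a (ENSMUSG00000053977; chromosome 6, 71373427 to 71379173, plus strand), the CD8 alpha chain that marks cDC1s resident in lymphoid organs and that migratory cDC1s lack or carry weakly, stood at 1001, 978 and 1194 CPM in control spleen and 942, 953 and 876 in knockout spleen. In lymph node it had 139, 122 and 141 CPM in controls and 183, 199 and 193 in knockouts. The groups did not overlap in either tissue, and the directions were opposite: -0.20 ± 0.086 in spleen (edgeR adjusted p = 0.352) and 0.51 ± 0.087 in lymph node (edgeR adjusted p = 0.00993). The tissue difference was 0.71 ± 0.12 (edgeR adjusted p = 0.0178), and the call was lost without any 1 of the 3 knockout spleen libraries (edgeR adjusted p up to 0.078). Cst3 (ENSMUSG00000027447; chromosome 2, 148871722 to 148875692, minus strand), cystatin C, an inhibitor of cathepsins made in large amounts by dendritic cells, had 23931, 22974 and 25077 CPM in control spleen, 21338, 21225 and 21441 in knockout spleen, 7406, 7309 and 7918 in control lymph node and 8675, 8952 and 9167 in knockout lymph node. No groups of the same tissue overlapped. The effect passed in neither tissue alone, while the tissue difference of 0.41 ± 0.076 did (edgeR adjusted p = 0.0267; 0.0235 to 0.123 with 1 library left out, lost in 8 of 12 fits).

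Of 37 cDC1 identity genes tested, Cd8a and Cst3 passed with positive and 0 with negative tissue differences, and the median was 0.074. Clec9a, the receptor by which cDC1s sense dead cells, lay just outside the threshold: it had 12.9, 13.3 and 13.2 CPM in control and 22.6, 19 and 19.1 in knockout lymph node, and 131, 132 and 117 against 112, 112 and 129 in spleen (tissue difference 0.73 ± 0.15, edgeR adjusted p = 0.0521). Fuca1, a lysosomal fucosidase of the same list, had the opposite sign (-0.63 ± 0.14, edgeR adjusted p = 0.0724). Just inside the threshold lay Cers6 at an edgeR adjusted p of 0.0497 and Ms4a4b at 0.0464.

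Cd274 (ENSMUSG00000016496; chromosome 19, 29367455 to 29388095, plus strand) encodes PD-L1, the ligand that restrains T cells through PD-1. It stood at 272, 262 and 245 CPM in control spleen and 229, 244 and 230.4 in knockout spleen, and at 108, 102 and 109 CPM in control and 145, 160.1 and 142 in knockout lymph node. Both pairs of groups were separate, lower in knockout spleen and higher in knockout lymph node. The rise in lymph node passed (0.48 ± 0.078, edgeR adjusted p = 0.0071) and the spleen change did not (-0.15 ± 0.078). Its tissue difference was 0.63 ± 0.11 (edgeR adjusted p = 0.02; 0.0155 to 0.097 with 1 library left out, lost in 7 of 12 fits). Cd274 was the sole gene past the threshold among 59 genes of the CCR7-linked maturation programme (median 0.061) and among 42 genes of regulation and Treg induction (median 0.16). Cd80, a ligand of CD28 and CTLA-4, had a tissue difference of 0.68 ± 0.20 (edgeR adjusted p = 0.185) and Lgals3, galectin-3, of 0.46 ± 0.10 (edgeR adjusted p = 0.0603).

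Several positive genes encode regulators of transcription and survival. Rel (ENSMUSG00000020275; chromosome 11, 23736847 to 23770970, minus strand), the NF-kB subunit c-Rel, which drives IL-12 and maturation genes in dendritic cells, had 683, 744 and 628 CPM in control spleen, 572, 540.4 and 581 in knockout spleen, 174, 178 and 204 in control lymph node and 267, 272 and 238 in knockout lymph node. Neither pair of groups overlapped, and the tissue difference was 0.76 ± 0.12 (edgeR adjusted p = 0.011; up to 0.0674 without knockout spleen replicate 1 or 2). Rel was the sole gene past the threshold among 32 genes of NF-kB signalling. Nr4a3 (ENSMUSG00000028341; chromosome 4, 48045153 to 48086447, plus strand), an orphan nuclear receptor induced by activation and linked to dendritic cell migration, went from 29.9, 27.7 and 41.5 CPM in control to 55.2, 71.6 and 52.1 in knockout lymph node, while spleen had 396, 407 and 337 CPM in controls and 321, 300.0 and 352 in knockouts, which overlapped (1.08 ± 0.21, edgeR adjusted p = 0.0369; 0.00386 to 0.146 with 1 library left out, lost in 9 of 12 fits). Its relative Nr4a2 showed a similar size without passing (0.99 ± 0.22, edgeR adjusted p = 0.0707). Bcl2l11, which encodes the death-promoting BCL2 relative BIM, had 204, 189 and 179 CPM in control spleen and 167, 173 and 164 in knockout spleen, with 48.1, 47.4 and 43 in control and 66.2, 89.3 and 65.3 in knockout lymph node (0.86 ± 0.16, edgeR adjusted p = 0.0295; lost in 8 of 12 fits with 1 library left out, up to 0.11). Knockout lymph node replicate 2 was the highest of its group for both Nr4a3 and Bcl2l11.

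Spic (ENSMUSG00000004359; chromosome 10, 88674772 to 88685015, minus strand), the transcription factor of red pulp macrophages, fell in spleen and stood higher in knockout lymph node. It had 89.4, 67.1 and 73.1 CPM in control spleen and 45, 49.3 and 41 in knockout spleen, and 15.4, 14.1 and 12.3 CPM in control and 21.1, 24.6 and 17.8 in knockout lymph node. All 4 groups were separate from each other. The tissue difference was 1.37 ± 0.21 (edgeR adjusted p = 0.0102), and the call held under every alternative that was run. Spic was the sole gene past the threshold among the 22 macrophage markers tested. The summed level of that list was 698 to 756 CPM in control spleen, 598 to 649 in knockout spleen, 259 to 296 in control lymph node and 237 to 246 in knockout lymph node, and its median tissue difference was -0.30, opposite in sign to Spic.

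The other positive genes stood higher in knockout lymph node than in its controls, and 5 of these 7 rises passed the test. Adam19 (ENSMUSG00000011256; chromosome 11, 46055992 to 46147343, plus strand), a membrane protease that sheds growth factors, had 64.7, 66.1 and 63.4 CPM in control and 101, 98.7 and 104 in knockout lymph node, against 200.0, 232 and 212 and 212, 209.8 and 194 in spleen, where the groups overlapped (0.71 ± 0.11, edgeR adjusted p = 0.011). Nabp1, a single-stranded DNA binding protein of DNA repair, had 1390.2, 1343 and 1244 CPM in control spleen, 1077, 1069 and 1057 in knockout spleen, 261, 231 and 248 in control and 323, 301 and 315 in knockout lymph node (0.66 ± 0.10, edgeR adjusted p = 0.00607). These 2 calls held with any 1 library left out, while over the 24 alternatives Adam19 lost its call in 1 and Nabp1 in 2 (edgeR adjusted p up to 0.185 and 0.13). Neat1, the RNA scaffold of paraspeckles, was at similar levels in both control groups, 1793, 1639 and 1643 CPM in spleen and 1564, 1615 and 1768 in lymph node. It stood higher in knockout lymph node at 2188, 2318 and 2125 (0.42 ± 0.069, edgeR adjusted p = 0.00758). Knockout spleen lay below its controls at 1469.5, 1488 and 1613, a change that did not pass (-0.15 ± 0.069, edgeR adjusted p = 0.372). The tissue difference was 0.57 ± 0.10 (edgeR adjusted p = 0.0174, lost in 5 of 12 fits with 1 library left out, up to 0.0954). Shtn1, which encodes shootin-1, and Cers6, a ceramide synthase, passed without a call in either tissue (0.68 ± 0.13 and 0.82 ± 0.16, edgeR adjusted p = 0.0385 and 0.0497), and each lost its call in 9 and 11 of 12 fits with 1 library left out. The genes Gm16617 and 5430437J10Rik, of no known function, completed the 14. Gm16617 had 20.5, 18.6 and 15.8 CPM in control and 29.9, 30.8 and 27 in knockout lymph node, against 55.9, 55.4 and 51.9 and 40.1, 43.4 and 38.8 in spleen. Its tissue difference was 1.09 ± 0.18 (edgeR adjusted p = 0.0121, and up to 0.0576 without knockout spleen replicate 1 or 3). Other genes overlap 38.5% of its exon bases, with Arhgef40 as the largest partner. For 5430437J10Rik the lymph node levels were 14.7, 18.6 and 15.9 and 27, 32 and 30.5 CPM, and the spleen groups overlapped (0.97 ± 0.17, edgeR adjusted p = 0.0175; up to 0.0928 without knockout spleen replicate 1 or 2 or control lymph node replicate 1). Smaller overlaps with other genes were 19.5% of exon bases for Tmem214, 14.1% for Cd274, 12.7% for Cnp and 10.1% for Adam19. Their largest partners were Gm43808, AC119228.1, Dnajc7 and Gm16033, and the counting did not use strand.

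**Figure D3:**
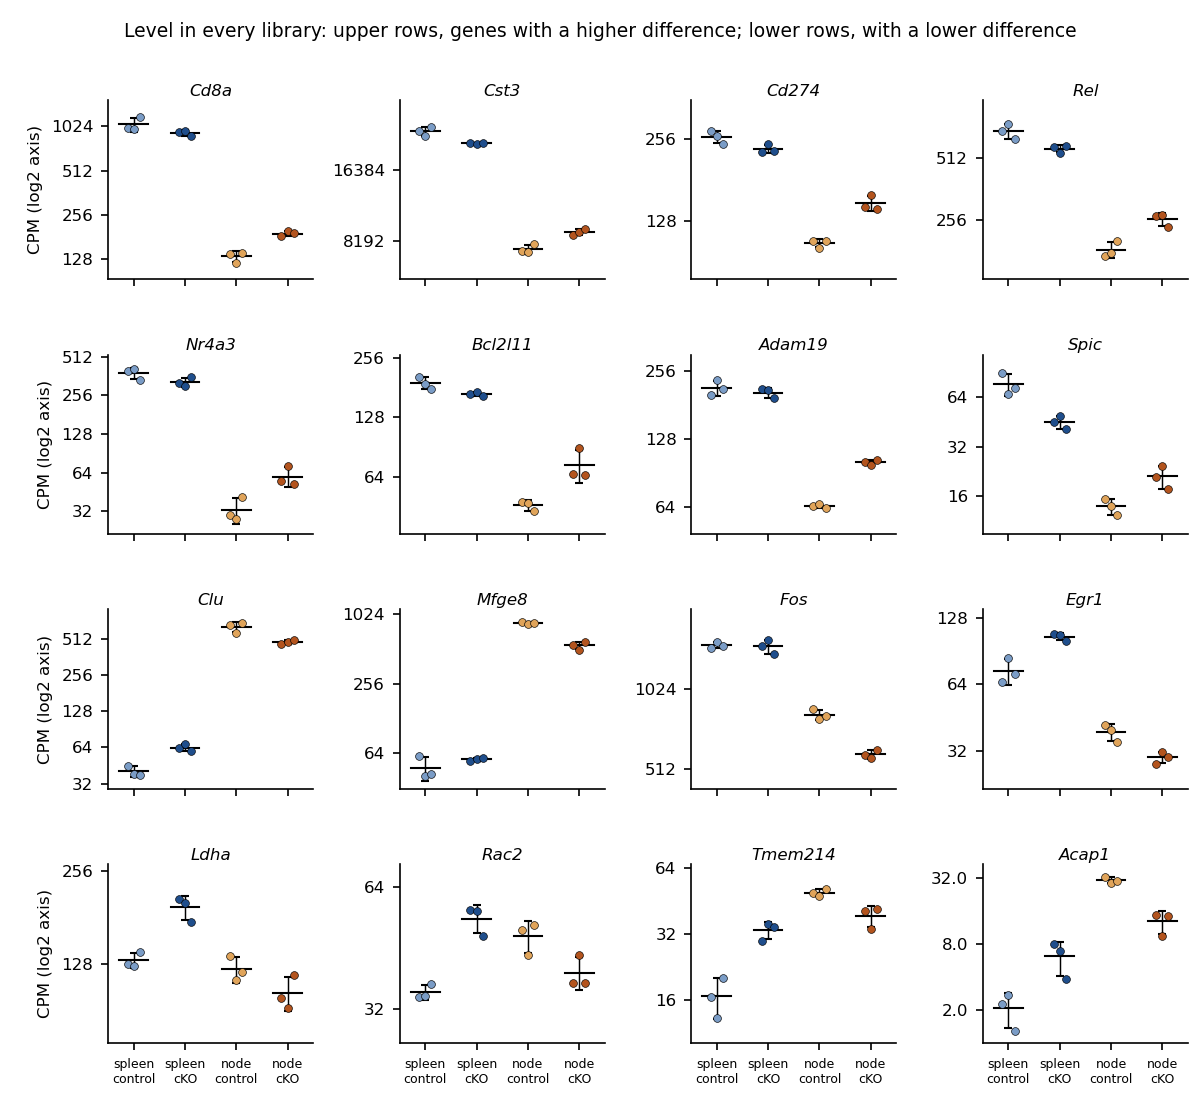
Level of 16 genes past the threshold in every library (points; y axis CPM on a log2 axis) with the mean (bar) and SD (whisker) of the 3 libraries of each group. In the 8 genes of the upper rows the knockout mean lies below control in spleen and above it in lymph node; in the lower rows the knockout mean lies above control in spleen, except for Fos, and below it in lymph node.

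Among the genes with negative tissue differences, Clu and Mfge8 were much higher in lymph node than in spleen, and their lymph node level was lower in knockout. Clu (ENSMUSG00000022037; chromosome 14, 65968483 to 65981547, plus strand) encodes clusterin, a secreted chaperone. It had 670.3, 575 and 689.8 CPM in control and 458, 481 and 498 in knockout lymph node, and 45.1, 38.7 and 37.7 CPM in control and 63.2, 68.4 and 59.4 in knockout spleen. No groups overlapped, and the spleen rise passed (0.65 ± 0.094, edgeR adjusted p = 0.00399) while the lymph node change was -0.43 ± 0.092 (edgeR adjusted p = 0.0611). The tissue difference was -1.08 ± 0.13 (edgeR adjusted p = 6.66e-04), and the call held under every alternative that was run. Mfge8 (ENSMUSG00000030605; chromosome 7, 79133768 to 79149060, minus strand) encodes a bridging protein that links phosphatidylserine on dying cells to integrins of phagocytes. Its lymph node level was 872, 849 and 862 CPM in controls and 558, 507 and 592 in knockouts, and in spleen the groups overlapped at 61, 41.1 and 42.2 and 55.3, 56.6 and 58 CPM. The fall in lymph node passed (-0.64 ± 0.12, edgeR adjusted p = 0.0187), and the tissue difference was -0.87 ± 0.17 (edgeR adjusted p = 0.0375; lost in 10 of 12 fits with 1 library left out, up to 0.107). Mfge8 was the sole gene past the threshold among 37 genes of apoptotic cell uptake, whose median was -0.29.

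Both Fos and Egr1, immediate early transcription factors induced within minutes of a stimulus, had negative tissue differences, by different routes. Fos (ENSMUSG00000021250; chromosome 12, 85473890 to 85477273, plus strand) overlapped between the genotypes in spleen, with 1468, 1546 and 1490.2 CPM in controls and 1487, 1572 and 1392 in knockouts, and fell in lymph node from 861, 793 and 813 to 582, 563 and 607.7 CPM (-0.49 ± 0.066, edgeR adjusted p = 0.00108; tissue difference -0.48 ± 0.093, edgeR adjusted p = 0.0417). Egr1 stood higher in knockout spleen, 108, 107 and 101 against 65.4, 84.2 and 71 CPM, and lower in knockout lymph node, 28, 31.4 and 30.1 against 42.1, 39.7 and 35.1 CPM. Neither change passed alone, and the tissue difference was -0.90 ± 0.16 (edgeR adjusted p = 0.0214). The calls were lost in 8 and 5 of 12 fits with 1 library left out, with edgeR adjusted p up to 0.132 for Fos and 0.0825 for Egr1. With Nr4a3 these were the 3 genes past the threshold among 39 immediate early genes tested, whose median was 0.028. Of 30 JAK2-STAT5 response genes tested, Egr1 alone passed, and the median was 0.16. Socs3, a feedback inhibitor of JAK signalling, had 7.47, 10.4 and 12.5 CPM in control and 17.3, 15.5 and 12.2 in knockout spleen, against 20.5, 19.2 and 19.8 and 12.8, 12.5 and 14.2 in lymph node (-1.16 ± 0.29, edgeR adjusted p = 0.116), and the regulatory PI3-kinase subunit Pik3r1 had 0.45 ± 0.11 (edgeR adjusted p = 0.113). Socs2 is among the best known STAT5 targets, and its levels were 648, 657 and 675 CPM in control spleen, 587, 580.0 and 570.2 in knockout spleen, 812, 819.5 and 807 in control and 846, 871 and 854 in knockout lymph node. Its tissue difference did not pass (0.27 ± 0.082, edgeR adjusted p = 0.197). Neither did its change in spleen (-0.19 ± 0.058, edgeR adjusted p = 0.175) or in lymph node (0.076 ± 0.058, edgeR adjusted p = 0.899).

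Rac2, Itgb7 and Ldha rose in spleen, and their means were lower in knockout than in control lymph node, where no change passed the test. Rac2, a small GTPase of the phagocyte oxidase and of cell movement, had 34.3, 34.5 and 36.8 CPM in control and 56, 55.8 and 48.5 in knockout spleen, and 50, 43.5 and 51.5 against 37.2, 43.5 and 37.1 in lymph node (-0.90 ± 0.16, edgeR adjusted p = 0.0267). Itgb7, the integrin chain that pairs with alpha-4 or alpha-E for homing to and holding in gut, had 33.1, 37.4 and 30.6 and 61.6, 53.9 and 56.1 CPM in spleen and 53.4, 42.2 and 41.6 and 42.7, 38.7 and 30.1 in lymph node (-1.06 ± 0.21, edgeR adjusted p = 0.041). Their lymph node groups overlapped. Ldha (ENSMUSG00000063229; chromosome 7, 46841475 to 46855627, plus strand), the lactate dehydrogenase of glycolysis, had 128, 126 and 140.2 CPM in control and 207, 202 and 175 in knockout spleen, and 136, 113 and 120.1 against 99.6, 92.1 and 118 in lymph node (-0.82 ± 0.15, edgeR adjusted p = 0.0268). It was the sole gene past the threshold among 39 genes of glycolysis and hypoxia, where the enolase Eno1 had -0.79 ± 0.17 (edgeR adjusted p = 0.0565). Leaving out 1 library ended the call in 7 of 12 fits for Rac2, 8 for Itgb7 and 5 for Ldha, with edgeR adjusted p up to 0.112, 0.13 and 0.101.

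Tmem214, a protein of the endoplasmic reticulum, had 16.5, 13.2 and 20.3 CPM in control and 29.9, 35.6 and 34.5 in knockout spleen, and 49.3, 47.8 and 51.5 against 41, 33.9 and 41.7 in lymph node (-1.35 ± 0.22, edgeR adjusted p = 0.011). The groups did not overlap in either tissue. The call held with any 1 library left out and was lost in 1 of the 24 alternatives (edgeR adjusted p = 0.0815). Cnp, a phosphodiesterase known from myelin, had 14.7, 15.9 and 16.9 and 24.3, 29.1 and 28.9 CPM in spleen and 24.8, 20.1 and 24.5 and 16.2, 14.1 and 18.8 in lymph node, again with opposite directions (-1.29 ± 0.23, edgeR adjusted p = 0.0219). Slc6a13, a transporter of GABA and taurine, had 0.454, 0.803 and 0.945 and 2.92, 3.99 and 2.83 CPM in spleen and 8.61, 6.85 and 7.86 and 7.11, 5.9 and 5.61 in lymph node (-2.47 ± 0.47, edgeR adjusted p = 0.0371). The phosphodiesterase gene Gdpd1 had 0 counts in all 3 control spleen libraries and 0.926, 0.333 and 0.605 CPM in knockout spleen, at least 19.1-fold higher, with 2.48, 1.5 and 1.96 and 1.64, 0.549 and 1.16 CPM in lymph node (edgeR adjusted p = 0.0263). Cnp, Slc6a13 and Gdpd1 lost their calls in 5, 9 and 6 of 12 fits with 1 library left out.

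The last negative genes are expressed in T cells and were far higher in lymph node than in spleen. Acap1 (ENSMUSG00000001588; chromosome 11, 69881567 to 69895539, minus strand), an ARF GTPase regulator of integrin recycling, had 2.27, 2.73 and 1.28 CPM in control and 7.95, 6.85 and 3.85 in knockout spleen, and 32.8, 28.6 and 30.1 in control and 14.6, 9.4 and 14.3 in knockout lymph node. The groups were separate in both tissues, and the tissue difference was -2.83 ± 0.42 (edgeR adjusted p = 0.00626). Ms4a4b, a membrane protein of T cells, had 0.121, 0.402 and 0.27 and 1.66, 0.732 and 1.85 CPM in spleen and 14.9, 16 and 19.4 and 15.4, 15.4 and 11.9 in lymph node (-2.69 ± 0.54, edgeR adjusted p = 0.0464; lost in 9 of 12 fits with 1 library left out). Sh2d2a, an adaptor of T cell activation, was at or near 0 in control spleen (0, 6 and 0 counts), at 1.22, 1.33 and 0.795 CPM in knockout spleen, and at 14.7, 11.9 and 13.8 and 8.49, 8.41 and 8.68 CPM in lymph node (edgeR adjusted p = 0.0257; lost in 6 of 12 fits). Igfbp4 lay just outside the threshold (-3.15 ± 0.65, edgeR adjusted p = 0.0549).

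Of the 29 T cell markers, Acap1 and Ms4a4b passed with a negative and 0 with a positive tissue difference, and the median was -0.51. The summed level of the list was 129 to 142 CPM in control spleen, 155 to 169 in knockout spleen, 566 to 582 in control and 422 to 460 in knockout lymph node, and none of its genes was at 0 in any group. Trbc2, a constant gene of the T cell receptor beta chain, had 0.454, 0.723 and 1.45 CPM in control and 1.46, 1.26 and 2.23 in knockout spleen, and 30.7, 31.3 and 35 and 22.2, 21 and 22.3 in lymph node (-1.48 ± 0.43, edgeR adjusted p = 0.173). The part of T cell RNA in the 3 calls above was not tested.

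**Figure D4:**
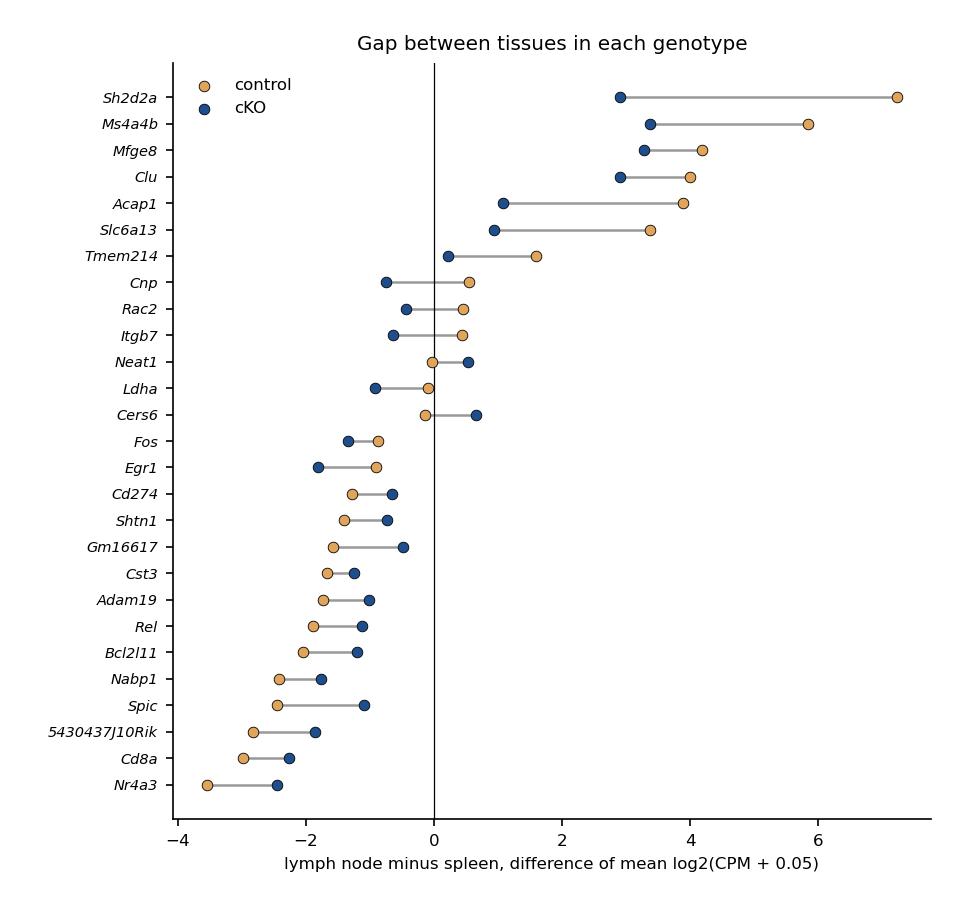
Difference of mean log2(CPM + 0.05) between lymph node and spleen (x axis; positive means higher in lymph node) for 27 genes past the threshold, in control (orange) and cKO (blue), 3 libraries per group. Antibody genes, Amy1 and the 2 genes with an empty group are left out; the blue point lies nearer to 0 than the orange one for 20 of the 27 genes.

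Rad50 and Tpm2, known from earlier results of these data as higher in knockouts of both tissues, showed no tissue difference past the threshold. Rad50, a subunit of the DNA break repair complex MRN, had 132, 142 and 141 CPM in control and 199, 218 and 185 in knockout spleen, and 124, 116 and 115 and 215, 203 and 225 in lymph node. Tpm2, a tropomyosin of actin filaments, had 31.3, 31.3 and 30.4 and 61.4, 55.1 and 56 CPM in spleen and 5.7, 6.2 and 4.71 and 14.5, 16 and 14.3 in lymph node. The tissue differences were 0.32 ± 0.12 for Rad50 and 0.54 ± 0.19 for Tpm2, each with an edgeR adjusted p of 0.268. Both were larger in lymph node in the point estimate, and a p that misses the threshold does not show that the effects were equal.

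Ribosomal protein genes, which encode the parts of the ribosome, had small tissue differences of nearly uniform sign. Of 82 tested, 0 passed for the tissue difference by edgeR, 58 had an unadjusted p under 0.05, all positive, and DESeq2 called 2 and limma-voom 1. In all, 81 of the 82 had a positive tissue difference, against 50.4% of all genes tested. Their median was 0.52, against 0.0054 over all genes. These genes were measured in the same 12 libraries, so their signs are not separate results. The median genotype effect was -0.34 in spleen and 0.17 in lymph node. The summed level of the list was 52100 to 60300 CPM in control and 41800 to 48800 in knockout spleen. In lymph node it overlapped between genotypes, at 19700 to 28200 CPM in control and 22600 to 30700 in knockout. Rps12, of the small subunit, showed it at 402, 411 and 376 CPM in control spleen, 303, 257 and 328 in knockout spleen, 71.8, 75.8 and 105 in control and 110.1, 133 and 98.4 in knockout lymph node (0.86 ± 0.20, edgeR adjusted p = 0.0821). The paralog Rps27l had 0.52 ± 0.11 (edgeR adjusted p = 0.0548). Rpl29 was an exception in spleen, where it stood higher in knockouts (79.8, 77.1 and 62.9 against 117, 109 and 128 CPM), with 0.67 ± 0.21 for the tissue difference (edgeR adjusted p = 0.199). Over all genes tested, the median tissue difference was 0.28 for genes with under 1000 exon bases, 0.036 for 1000 to under 2000, -0.085 for 2000 to under 4000, -0.045 for 4000 to under 8000 and 0.092 for longer genes. The ribosomal list had a median of 1754.5 exon bases and a median tissue difference of 0.52. Exon bases here cover all annotated exons of a gene and can exceed the length of its transcripts. The part of transcript length in this shift was not tested.

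Noncoding RNAs leaned the same way. All 14 tested had positive tissue differences (median 0.62), and Neat1 passed. The summed level of the list overlapped between genotypes in both tissues. It was 35300 to 105000 CPM in control and 61600 to 79400 in knockout spleen, and 12000 to 28000 and 13900 to 28300 in lymph node. Malat1, a nuclear RNA, had 20894, 21559.8 and 22898 CPM in control and 14135, 12169.5 and 14595 in knockout spleen, and 7168, 8593 and 5716 and 7041, 6937 and 7494 in lymph node (0.68 ± 0.16, edgeR adjusted p = 0.0823). It fell in spleen (-0.68 ± 0.11, edgeR adjusted p = 0.0101) and its lymph node groups overlapped. Kcnq1ot1, an imprinted antisense RNA, had 1.10 ± 0.23 (edgeR adjusted p = 0.0548); the counting did not use strand, so its reads cannot be told from those of overlapping genes.

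Cell cycle genes leaned the opposite way. Of 56 tested, 0 passed by edgeR, 16 had an unadjusted p under 0.05 with a negative and 1 with a positive sign, DESeq2 called 4 and limma-voom 0. The tissue difference was negative in 49 of 56, with a median of -0.60, from 0.36 in spleen and -0.20 in lymph node. Mcm6, of the replication helicase, had 19.1, 15.3 and 9.82 CPM in control and 25.2, 26.4 and 18.9 in knockout spleen, and 34.3, 41.6 and 41.7 and 29.2, 28.9 and 31.3 in lymph node (-1.07 ± 0.29, edgeR adjusted p = 0.144). Cenpf, a kinetochore protein of dividing cells, had 3.84, 3.69 and 6.24 and 11.5, 11.6 and 12.6 CPM in spleen and 1.92, 2.42 and 2.64 and 1.04, 1.58 and 2.71 in lymph node (-1.76 ± 0.51, edgeR adjusted p = 0.171). The summed level of the list was 862 to 897 CPM in control spleen, 1050 to 1130 in knockout spleen, 685 to 737 in control and 627 to 683 in knockout lymph node.

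Markers of most other cell types had negative medians too. The B cell list had -0.76 over 21 genes, of which 0 passed by edgeR, 4 had an unadjusted p under 0.05 with a negative and 1 with a positive sign, DESeq2 called 3 and limma-voom 0. Its summed level was 368 to 443 CPM in control spleen, 505 to 565 in knockout spleen, 269 to 294 in control and 240 to 273 in knockout lymph node. Ighm, the constant gene of IgM, had -0.71 ± 0.17 (edgeR adjusted p = 0.0881). The medians were -0.79 for neutrophil and monocyte genes, -0.41 for cDC2 and monocyte-derived cells, -0.52 for plasmacytoid dendritic cells and -0.53 for NK cells. Of the 17 neutrophil and monocyte genes tested, 7 had a group at 0 counts, and with these set at their floor the list's median was -0.79. None of these 4 lists had a gene past the threshold by edgeR. At an unadjusted p under 0.05 the neutrophil and monocyte list had 2 negative genes, the cDC2 list 7 negative and 1 positive, the plasmacytoid list 1 of each sign and the NK list 1 positive. DESeq2 called 1 negative gene of the first list, 2 negative of the second, 1 positive of the third and 0 of the last, and limma-voom 0 in each. Positive medians were seen for erythroid genes (0.29) and for stromal and endothelial genes (0.20). These 2 lists had 0 genes past the threshold by edgeR, 4 and 1 at an unadjusted p under 0.05, 4 and 0 by DESeq2 and 0 by limma-voom. Exocrine pancreas genes, whose summed level was 9.92 to 24.4 CPM in control spleen, 27.3 to 31.2 in knockout spleen and at most 0.447 in lymph node, had 0 by any of these counts. The beta globin gene Hbb-bs had 39.4, 32.9 and 35 CPM in control and 20.7, 22.6 and 20.6 in knockout spleen, 0 counts in control lymph node and 0.0216, 0.183 and 0.455 CPM in knockout lymph node (edgeR adjusted p = 0.0548). Its lymph node values lie close to the floor.

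Interferon-stimulated and heat shock genes, both known to respond to cell state, had smaller shifts. Of 74 interferon-stimulated genes 0 passed by edgeR, while 16 had an unadjusted p under 0.05, all positive, DESeq2 called 5 and limma-voom 0. Their median was 0.19. Isg15, a ubiquitin-like modifier, had 43.2, 39.8 and 52.3 CPM in control and 68.9, 69.2 and 68 in knockout lymph node, against 74.5, 81.8 and 98 and 72, 79 and 82 in spleen (0.73 ± 0.17, edgeR adjusted p = 0.0925), and the chemokine gene Cxcl9 had 0.67 ± 0.18 (edgeR adjusted p = 0.144). Nlrc5, the activator of MHC class I genes, had 0.45 ± 0.094 (edgeR adjusted p = 0.0565). Of 43 heat shock and chaperone genes 0 passed by edgeR, 10 had an unadjusted p under 0.05 with a negative and 5 with a positive sign, DESeq2 called 4 and limma-voom 0. Within the tissues, Hspa1a and Hspa1b, the inducible HSP70 genes, fell in lymph node (-0.78 and -0.72, edgeR adjusted p = 1.29e-04 and 9.96e-05) and had -0.28 and -0.36 in spleen. The chaperonin Hspe1 fell in spleen (-0.56, edgeR adjusted p = 0.00819) and had -0.073 in lymph node. Their tissue differences were -0.51 ± 0.12, -0.37 ± 0.11 and 0.49 ± 0.13, with edgeR adjusted p of 0.0988, 0.182 and 0.125. Hspa1a and Hspa1b are near-identical and can exchange reads.

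Among the remaining lists, that of MHC class II had 1 of 21 genes past the threshold (median 0.016). This was the cathepsin inhibitor gene Cst3, which is not itself an MHC class II gene. H2-DMb1, a chain of the peptide editor H2-DM, had -0.60 ± 0.13 (edgeR adjusted p = 0.0687). MHC class I and cross-presentation genes had 1 of 34, Rac2. Migration and adhesion genes had 2 of 55, Adam19 with a positive and Itgb7 with a negative sign, while Cd44 had 0.60 ± 0.12 (edgeR adjusted p = 0.0548) and the integrin chain Itgb2 -1.11 ± 0.23 (edgeR adjusted p = 0.0572). Cholesterol synthesis, unfolded protein response, p53, lysosome, inflammatory cytokine and respiratory chain genes had 0 past the threshold by edgeR. At an unadjusted p under 0.05 these 6 lists had 4, 11, 9, 9, 4 and 10 genes, DESeq2 called 1, 3, 2, 1, 3 and 0, and limma-voom 1, 1, 0, 0, 0 and 0. Hspa5, the chaperone BiP, had -0.58 ± 0.12 (edgeR adjusted p = 0.0644), and Hmgcs1, of cholesterol synthesis, 0.60 ± 0.12 (edgeR adjusted p = 0.0522).

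**Figure D5:**
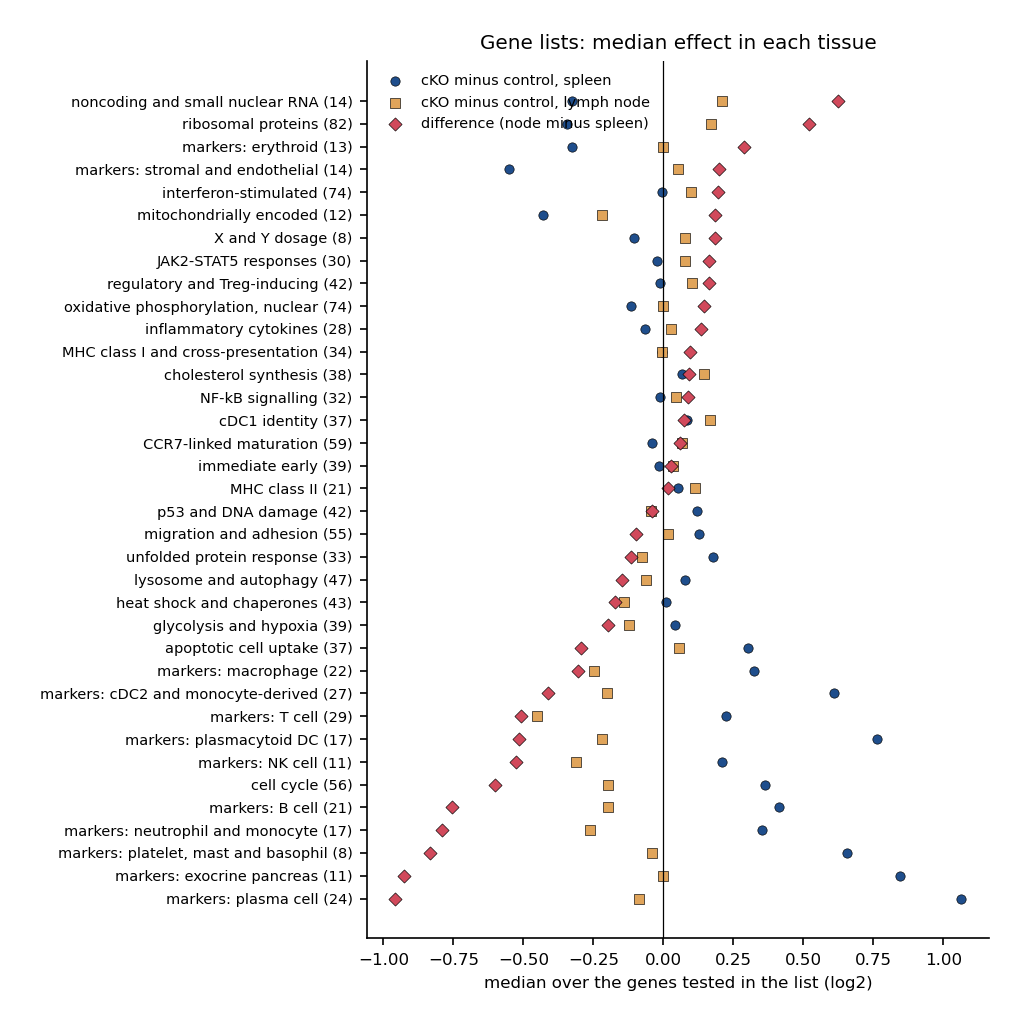
Median log2 effect over the tested genes of each list (number in brackets) in spleen (circles), in lymph node (squares) and their difference per gene (diamonds), for lists with at least 8 tested genes. Plasma cell, exocrine pancreas, platelet and mast cell, neutrophil, B cell and cell cycle lists lie at the lower end. Ribosomal protein and noncoding RNA lists lie at the upper end. A group at 0 counts was present for 9 of 11 exocrine pancreas, 3 of 8 platelet and mast cell and 7 of 17 neutrophil genes.

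Genes near the targeted gene and near the Cre driver were examined separately. Of 62 genes tested within 1 Mb of Epor on chromosome 9, 0 passed for the tissue difference by edgeR, 8 had an unadjusted p under 0.05, and DESeq2 called 1 and limma-voom 0. Their median was -0.16. Of 31 genes tested within 1 Mb of Xcr1 (ENSMUSG00000060509; chromosome 9, 123852315 to 123862029, minus strand), also on chromosome 9, 0 passed by edgeR, 3 had an unadjusted p under 0.05, and both other tools called 0 (median -0.053).

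Promoter windows of the genes past the threshold were read for 3 short motifs tied to the pathways examined. The windows, from RefSeq on GRCm38.p6, run from 250 bases before to 50 after a gene's start, and 24 of the 55 genes had at least 1, none of them a V segment. TTCNNNGAA, the letters that STAT5 and other STAT proteins bind, was present on either strand for 2 of the 24 (8.3%), against 8.3% of the 11070 tested genes with a window. GAANNTTC, part of the heat shock element, was present for 4 of 24 (16.7%) against 7.1%, and CCAAT, bound by NF-Y, for 7 of 24 (29.2%) against 42.3%. The first 2 motifs read the same on both strands, and in the windows shown no match overlaps another. A match is a description of letters. The windows of the 2 genes with the STAT letters and of Rel, the transcription factor gene with the heat shock letters, are shown 5′ to 3′ on the gene's strand with the matches in capitals.
Gdpd1 (chr11:87074088-87074387, minus strand): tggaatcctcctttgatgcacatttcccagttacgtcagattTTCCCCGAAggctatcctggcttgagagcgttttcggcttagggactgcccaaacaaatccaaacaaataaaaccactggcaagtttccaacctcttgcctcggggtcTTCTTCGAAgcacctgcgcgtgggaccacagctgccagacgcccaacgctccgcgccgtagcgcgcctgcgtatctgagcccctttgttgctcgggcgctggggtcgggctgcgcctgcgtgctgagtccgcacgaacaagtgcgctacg
Tmem214 (chr5:30869329-30869628, plus strand): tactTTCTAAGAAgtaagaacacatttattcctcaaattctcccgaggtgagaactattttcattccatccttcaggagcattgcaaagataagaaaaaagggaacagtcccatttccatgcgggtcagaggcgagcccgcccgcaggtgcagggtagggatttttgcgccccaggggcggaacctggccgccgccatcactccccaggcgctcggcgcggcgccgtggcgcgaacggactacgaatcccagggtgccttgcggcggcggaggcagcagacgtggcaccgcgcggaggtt
Rel (chr11:23770920-23771219, minus strand): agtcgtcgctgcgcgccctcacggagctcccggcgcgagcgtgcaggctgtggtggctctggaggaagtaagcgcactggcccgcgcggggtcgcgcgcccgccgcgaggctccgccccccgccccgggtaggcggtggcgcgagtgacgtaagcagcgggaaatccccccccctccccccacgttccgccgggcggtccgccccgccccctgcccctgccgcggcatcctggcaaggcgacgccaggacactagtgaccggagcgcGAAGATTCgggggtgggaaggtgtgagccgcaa
In Gdpd1, which had no counts in control spleen, the STAT letters occur in 2 places, and in Tmem214, which was higher in knockout spleen and lower in knockout lymph node, in 1. Rel, which had the opposite directions, holds 1 match to the heat shock letters, which lies after the start of the gene.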

How the data were processed

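The deposited table holds raw gene counts for the 12 libraries. The authors aligned reads with HISAT2 2.1.0, per the submitters' processing notes, and counted them with featureCounts 2.0.8, per the file headers, by pair but with each read of a pair able to add to the count and without strand, on the GRCm38 annotation. None of its columns belongs to other samples. Libraries were made from sorted cells with a SMART-Seq kit, per the labels' protocols.

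Counts of all 55487 genes were filtered with edgeR 4.0.16 (R 4.3.3; minimum count 10, minimum total 15), scaled by TMM and fitted by robust quasi-likelihood with 1 mean per group, leaving 8 residual degrees of freedom. The tissue difference and both genotype effects were contrasts of this fit. Benjamini-Hochberg adjustment ran over 17362 genes, with a threshold of 0.05 and no fold minimum. SE is the size of the log2 value divided by the root of its F statistic. CPM are counts per 1e6 counts of the TMM-scaled library, and the floors cover counting error only.

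Named genes are the sort genes, Rad50 and Tpm2, up to 15 called genes per direction with the largest difference among those whose average reached 2 log2 CPM, up to 5 genes per class of call, and up to 4 genes of smallest p per list. V segments, salivary-type and remaining called genes were added by name after their values were seen. The members and lists were chosen with earlier results of these data known. Other scalings, filters, limma 3.58.1 (voom) and DESeq2 1.42.0, leaving out each library and a replicate term were tried, 24 alternatives in all. The labels do not say whether replicate numbers pair libraries, and the main fit used no pairing.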

Additional observations from a re-analysis of the deposited data

Results flagged for a closer look

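The change from control to knockout differed between spleen and lymph node, by the interaction term of the fit, for the 55 genes described above. The values are the change in lymph node minus the change in spleen on the log2 scale, each past an edgeR adjusted p of 0.05. Outside the antibody genes the positive differences were 0.66 for Nabp1, 1.37 for Spic, 0.71 for Adam19, 0.76 for Rel, 1.09 for Gm16617 and 0.57 for Neat1. Others were 0.97 for 5430437J10Rik, 0.71 for Cd8a, 0.63 for Cd274, 0.41 for Cst3, 0.86 for Bcl2l11 and 1.08 for Nr4a3. Further values were 0.68 for Shtn1 and 0.82 for Cers6. The negative ones were -1.08 for Clu, -2.83 for Acap1, -1.35 for Tmem214, -0.90 for Egr1, -1.29 for Cnp and -4.58 for Sh2d2a. Others were -0.90 for Rac2, -0.82 for Ldha, -2.47 for Slc6a13, -0.87 for Mfge8, -1.06 for Itgb7 and -0.48 for Fos. Further values were -2.69 for Ms4a4b. For constant and joining genes the differences were -0.98 for Jchain, -4.07 for Iglc2, -0.82 for Igkc, -0.94 for Igha, -2.42 for Iglc1 and -1.83 for Ighg3. Others were -3.57 for Ighg2b. For V segments with counts in all groups they were -8.06 for Iglv3, -6.66 for Igkv12-44, 6.41 for Igkv12-46, -8.43 for Ighv3-6, 7.49 for Ighv5-4 and 5.04 for Igkv6-23. Others were 4.94 for Igkv5-39. For the genes with a group at or under the floor of 3 counts the fitted difference has no bound and the edgeR adjusted p is given in its place. Among V segments it was 4.02e-08 for Igkv10-96, 1.18e-07 for Igkv8-30, 3.39e-06 for Ighv1-55, 4.69e-06 for Igkv4-57, 0.0144 for Ighv1-42 and 0.0175 for Igkv15-103. Others were 0.023 for Ighv1-78, 0.0267 for Ighv2-5, 0.0396 for Igkv2-109, 0.042 for Igkv13-85 and 0.0449 for Ighv14-4. Among other genes it was 5.13e-04 for Amy1, 0.0175 for Car6 and 0.0263 for Gdpd1.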

How the results depend on the processing

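No gene among the 55 changed sign under any of 24 alternatives, 14 passed in all of them, and 41 lost the call in at least 1; the causes were not tested. Leaving out 1 library moved the 55 calls to 29 to 222, the 31 calls outside immunoglobulin and T cell receptor genes to 12 to 192, the 106 spleen calls to 31 to 379 and the 79 lymph node calls to 51 to 90, with all 4 highest counts reached without control spleen replicate 3. The tissue difference called 514 genes with DESeq2 and 364 with no filter, which test more genes. Outside immunoglobulin and T cell receptor genes the counts were 461 and 322, with 54 for upper-quartile scaling, 59 for limma-voom with sample quality weights and 49 for a stricter filter. In spleen they were 642 with DESeq2, 169 with limma-voom, 436 with no filter and, chosen after seeing the data, 49 without control spleen replicates 1 and 2 together. In lymph node they were 204 with DESeq2, 176 with sample quality weights and 170 with no filter. Scalings moved the median of all genes by less than 0.1. The Ccr7 interaction log2 difference turned to 0.030 with upper-quartile scaling and ran from -0.11 to 0.040 without 1 library, positive at 0.027 without knockout spleen replicate 2. The Xcr1 interaction log2 difference turned to 0.030 with upper-quartile scaling, to 1.67e-06 with sample quality weights and ran from -0.18 to 0.084 without 1 library, the other positive values being 0.000125, 0.0195, 0.025 and 0.0749.

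Same-numbered libraries did not deviate together over all genes tested (correlations -0.057 to 0.041 over 18 pairs, pairs across genotypes included). The deviations were taken from means of 3 libraries, so they cannot show whether same-numbered libraries came from the same mouse. With the replicate block 34 genes were called for the tissue difference, 17 outside immunoglobulin and T cell receptor genes, and 40 in spleen, and 21 of the 55 lost the call. With a replicate block within genotype the first 2 counts were 15 and 4. Depth limits genes near 3 counts, which is the case for the groups listed at 0.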
